A study of Arabidopsis thaliana with 12 samples.

Results

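NTRC, AT3G52960, CCS and GLDH are 4 nuclear genes of the plant's antioxidant and redox systems. Each was measured by 1 array feature whose annotation held that gene alone. They were 4 of the 691 genes with such a feature in the series. The genes were picked by name with earlier results of the ppi1 and WT comparison known, so their differences are described with their errors and carry no p-value. The 12 arrays held total RNA of Arabidopsis thaliana, 6 from the ppi1 mutant and 6 from the wild type (WT), all labelled ecotype Columbia 0. In ppi1, chloroplasts take up precursor proteins poorly, and the mutation is known to affect TOC33, an import receptor of the outer chloroplast envelope. The labels give no tissue, plant age or treatment, and leave unstated which replicates, if any, are separate plants. Errors and p-values therefore measure only the spread between these arrays, which may be technical.

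Reactive oxygen species arise in chloroplasts and mitochondria as by-products of electron transport. Superoxide dismutases turn superoxide into hydrogen peroxide, which peroxiredoxins and ascorbate-dependent peroxidases reduce to water, and thioredoxin and glutaredoxin systems restore the oxidised enzymes. NTRC is a plastid NADPH-dependent thioredoxin reductase that carries its own thioredoxin domain and donates electrons to 2-Cys peroxiredoxins. AT3G52960 encodes peroxiredoxin IIE, a peroxidase of the chloroplast stroma. CCS is the chaperone that loads copper into copper/zinc superoxide dismutases. GLDH, L-galactono-1,4-lactone dehydrogenase (AT3G47930), catalyses the last step of vitamin C (ascorbate) synthesis at the inner mitochondrial membrane. The products of NTRC and AT3G52960 enter the chloroplast as precursors, whereas GLDH is a mitochondrial protein.

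Each level is an intensity in relative units. Summed deposited intensities were 3598 to 3689 over the ppi1 arrays and 3380 to 3582 over the WT arrays. Array medians ran from 0.475 to 0.645, and the arrays were therefore brought to a common distribution by quantile normalisation. Log2 differences are ppi1 minus WT, and values under a floor of 0.118 were set to that floor before log2 was taken. Within a group, replicate 1 resembled 2, replicate 3 resembled 4 and replicate 5 resembled 6, so the 6 arrays of a group may hold fewer than 6 independent values. None of the features was assigned to TOC33 alone, so the mutated gene gave no check of the labels. In bulk RNA, fewer cells that express a gene and less of its RNA per cell cannot be told apart.

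GLDH was the member with the lowest ppi1 level relative to WT and the one whose groups did not overlap. Its intensity was 0.323 at the lowest, 0.379 at the median and 0.431 at the highest over the ppi1 arrays, against 0.475, 0.532 and 0.568 over the WT arrays. Every ppi1 array lay below every WT array, and 6.09% of all features had groups that did not overlap, in either direction. The means were 0.378 ± 0.0362 in ppi1 and 0.526 ± 0.0407 in WT (SD, n = 6 each). The log2 difference was -0.48 (SE 0.0719), a level 28.1% lower in ppi1. The difference was negative at 6 of 6 replicate numbers, and 11.3% of all features analysed were lower in ppi1 at every number. It was smallest in size for replicates 1 and 2, at -0.36, followed by -0.45 for replicates 3 and 4, and was -0.62 for replicates 5 and 6.

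The size of the GLDH difference depended on the scale, and most of that went with a shift in the median of all features. On the deposited scale, before any normalisation, the GLDH intensities were 0.359, 0.396 and 0.501 (lowest, median, highest) in ppi1 and 0.428, 0.479 and 0.514 in WT. The groups then overlapped, although ppi1 was lower at 6 of 6 replicate numbers, and the log2 difference was -0.21. The share of all features lower at every number was not taken on that scale. On that scale the median log2 difference over all features was 0.21, so GLDH lay at -0.41 relative to it, near the -0.48 that it had relative to the median after quantile normalisation.

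**Figure D1:**
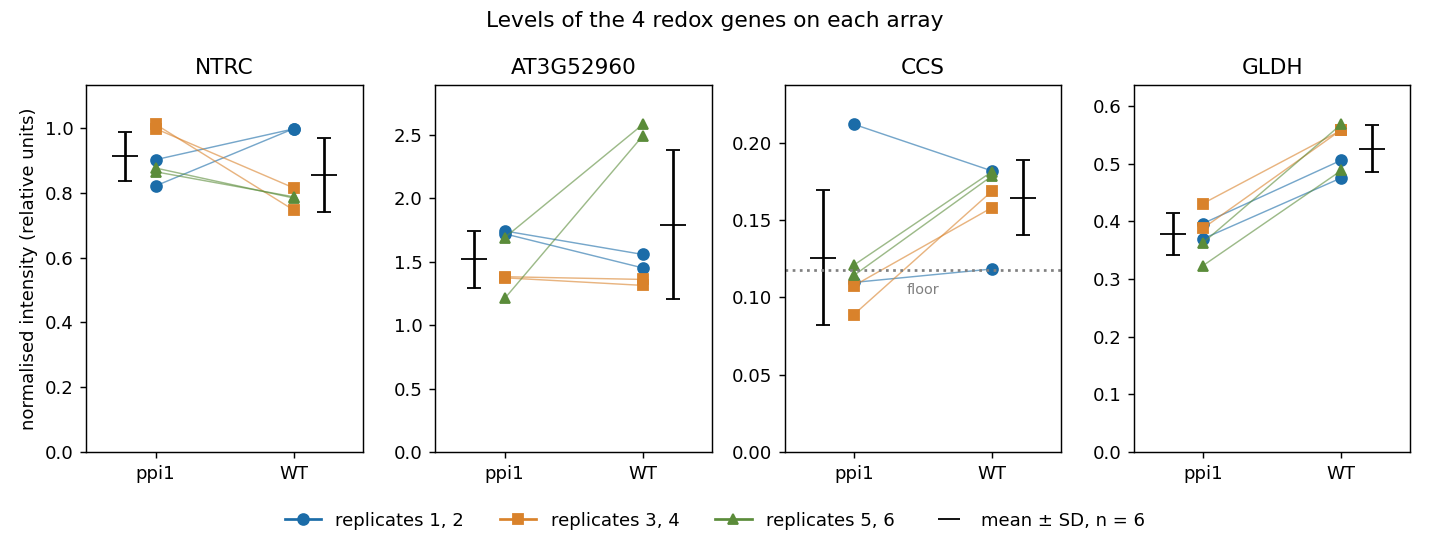
Quantile-normalised intensity (relative units, linear axis from 0) of the 4 genes, 1 panel each, with ppi1 left and WT right. Points are arrays, lines join arrays of the same replicate number, and black bars are mean ± SD over 6 arrays; the ppi1 arrays of GLDH all lie below its WT arrays, WT replicates 5 and 6 stand above the rest for AT3G52960, and 4 of 6 ppi1 arrays of CCS lie under the floor (dotted).

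AT3G52960, the gene of peroxiredoxin IIE, did not separate the groups, and its mean difference rested on a pair of WT arrays. Its intensity was 1.21, 1.54 and 1.74 (lowest, median, highest) over the ppi1 arrays and 1.31, 1.51 and 2.59 over the WT arrays. WT replicates 5 and 6 were the high arrays, at 2.59 and 2.50, while the other WT arrays ran from 1.31 to 1.56. The means were 1.52 ± 0.226 in ppi1 and 1.79 ± 0.585 in WT (SD, n = 6 each), and the log2 difference was -0.19 (SE 0.194). The level was higher in ppi1 at 4 of 6 replicate numbers and lower at the other 2.

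By sets of neighbouring replicates, AT3G52960 differed by 0.20 for replicates 1 and 2, by 0.04 for replicates 3 and 4 and by -0.83 for replicates 5 and 6. With replicates 5 and 6 of both groups left out, a choice made after the values were seen, its log2 difference was 0.12. Without WT replicate 5 alone it was -0.08, and without WT replicate 6 alone -0.09. The sign of the mean difference of this peroxiredoxin thus went with that set of arrays. Its within-group SD of 0.35 (log2) was at the 79.6 percentile of all features, although it was the brightest member, at the 90.8 percentile of level.

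NTRC, the thioredoxin reductase, also overlapped between the groups. Its intensity was 0.821, 0.889 and 1.01 (lowest, median, highest) in ppi1 and 0.746, 0.801 and 0.998 in WT. The means were 0.912 ± 0.0764 in ppi1 and 0.855 ± 0.113 in WT (SD, n = 6 each), with a log2 difference of 0.10 (SE 0.0877). WT replicates 1 and 2 were the high WT arrays, at 0.997 and 0.998, against 0.746 to 0.815 in the other WT arrays. The difference was -0.21 for replicates 1 and 2, 0.37 for replicates 3 and 4 and 0.15 for replicates 5 and 6. ppi1 was thus higher at 4 of 6 numbers. Leaving out replicates 1 and 2 of both groups, also a choice made after the values were seen, gave 0.26, and leaving out replicates 3 and 4 gave -0.03.

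CCS, the copper chaperone, was the dimmest member, at the 8.34 percentile of level, and the floor bears on its difference. Its intensity before the floor was 0.0888, 0.112 and 0.212 (lowest, median, highest) in ppi1 and 0.118, 0.174 and 0.182 in WT. After quantile normalisation, 4 of 6 ppi1 arrays lay under the floor, against 0 of 6 in WT. ppi1 replicate 2 was the high array of its group, at 0.212, and WT replicate 1 the low array of its own, at 0.118. With the floor applied, the log2 difference was -0.32 (SE 0.164), and it was 0.11 for replicates 1 and 2, -0.47 for replicates 3 and 4 and -0.59 for replicates 5 and 6. On the deposited scale it was -0.03, or -0.24 relative to the median of all features. The deposited CCS intensities were 0.103, 0.136 and 0.209 (lowest, median, highest) in ppi1 and 0.102, 0.152 and 0.164 in WT. The lowest deposited value was thus that of a WT array. Values at the floor have no order, so the size of the CCS difference is not well defined.

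**Figure D2:**
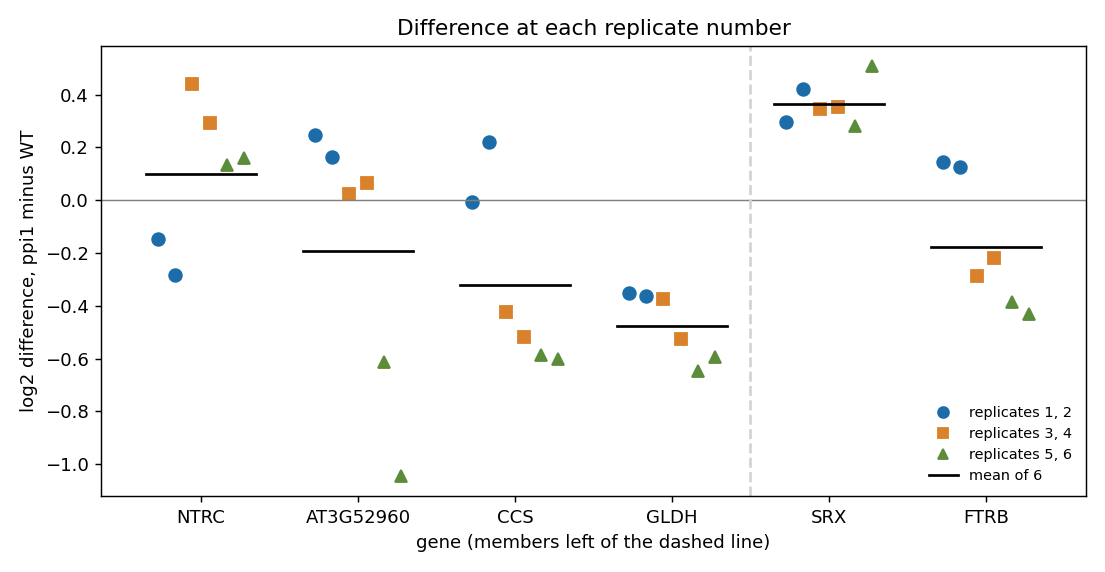
Log2 difference, ppi1 minus WT, at each of the 6 replicate numbers for the 4 members and, right of the dashed line, for SRX and FTRB; black lines are means of 6. GLDH lies below 0 and SRX above 0 at every number, while NTRC, AT3G52960, CCS and FTRB change sign between sets of neighbouring replicates.

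Over the 4 members, 3 log2 differences were negative and 1 positive, where 49.1% of all 3365 features analysed were negative. Their median was -0.26, beside 0.01 over all features. In the limma fit across all features, 284 features (8.44%) were called at a Benjamini-Hochberg adjusted p under 0.05, 106 of them higher (3.15%) and 178 lower (5.29%) in ppi1. Of the 4 members 1 was called, GLDH, and since the genes were chosen with this comparison known, nothing is read from that count. Likewise 1 of 4 members, GLDH again, had groups that did not overlap, beside 6.09% of all features. The median log2 difference of the 178 lower features was -0.51, and 96 of them had a larger decrease than GLDH. It ranked 18 by size among the 30 lower features with 1 gene. Its call was lost on the deposited scale and with neighbouring replicates averaged to 3 values per group, a setting in which 4 features were called in all. With the replicate number as a block 517 features were called, and with neighbouring replicates as a random block 99, and GLDH was the member called in both. For the same reason as above, nothing is read from these calls of GLDH. When ppi1 replicate 2 was left out CCS was called too, but 4 of the 5 ppi1 arrays that remained were set to the floor and so had no spread among themselves, and nothing is read from that call.

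**Figure D3:**
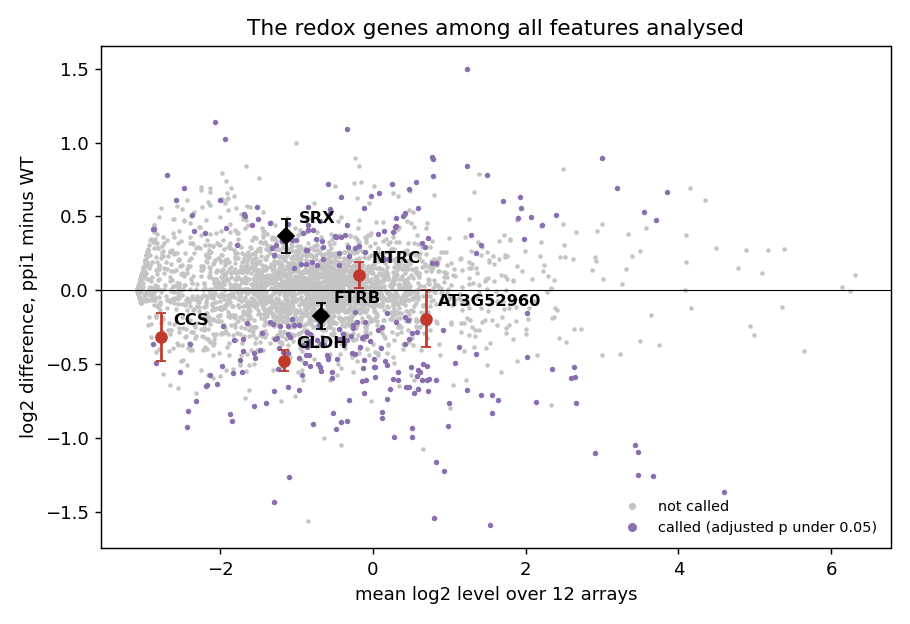
Log2 difference, ppi1 minus WT (vertical), against mean log2 level over 12 arrays (horizontal) for the 3365 features; red circles are the members and black diamonds the other listed redox genes, with bars of 1 SE. GLDH lies at -0.48 among dimmer features, CCS at -0.32 near the dim end, and AT3G52960 and NTRC nearer to 0.

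The median log2 difference of all features was 0.21 on the deposited scale, as given above, but the genes did not shift equally. Against quantile normalisation, AT3G52960 went from -0.19 to -0.14 and CCS from -0.32 to -0.03 on the deposited scale. Values relative to that median therefore allow for the typical shift only. NTRC was at 0.28 on that scale, or 0.07 relative to the median of all features, against 0.10 relative to it after quantile normalisation. AT3G52960 was at -0.14 on the deposited scale, or -0.34 relative to that median, against -0.20 after quantile normalisation. With each array divided by its median, NTRC was at 0.01 and AT3G52960 at -0.41, or 0.03 and -0.39 relative to the median of all features. Cyclic loess gave 0.10 for NTRC, -0.18 for AT3G52960, -0.18 for CCS and -0.49 for GLDH. GLDH, AT3G52960 and CCS had a negative difference under each of the 5 scalings, and NTRC a positive one.

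**Figure D4:**
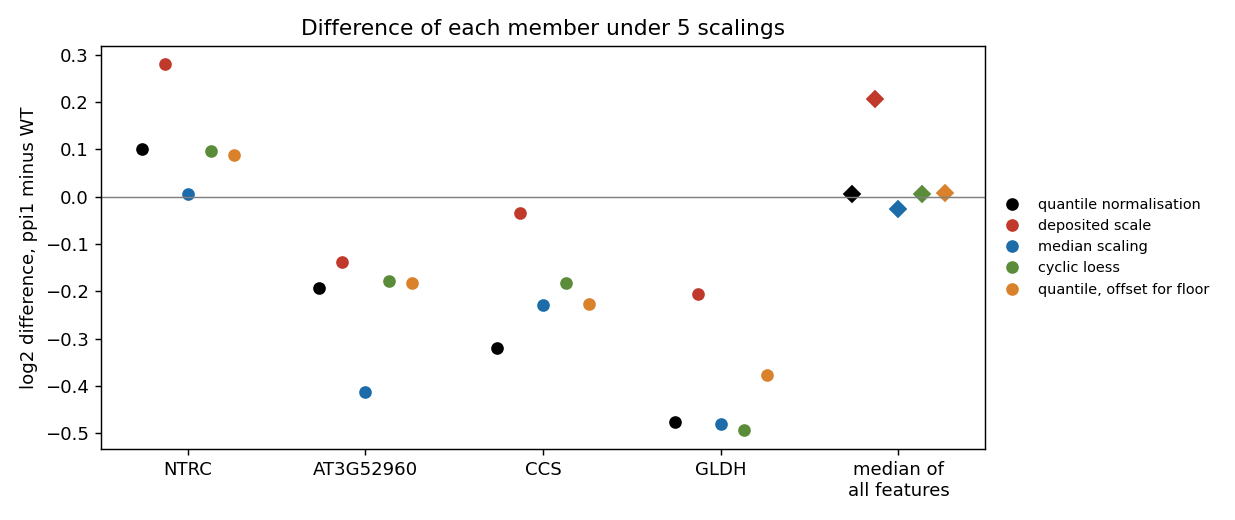
Log2 difference, ppi1 minus WT, of each member (circles) and the median over all features (diamonds) under quantile normalisation, the deposited scale, median scaling, cyclic loess, and quantile normalisation with the floor replaced by an added offset. The deposited scale sets the median of all features at 0.21 and GLDH at -0.21, and the other scalings leave that median between -0.03 and 0.01.

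The members did not share one profile over the arrays. Over the 12 arrays, Pearson's r of log2 level was 0.49 between AT3G52960 and CCS, -0.57 between NTRC and CCS and -0.42 between NTRC and AT3G52960. These values describe 12 arrays that share replicate numbers and the genotype difference. Every r with CCS includes 4 ppi1 arrays set to the floor, which have no order among themselves. GLDH had r of 0.44 with CCS, and of -0.05 once each group's mean was removed. Neighbouring replicates of a group differed in NTRC by a median of 0.0193 (log2), against 0.207 for other pairs of arrays in a group. For AT3G52960 these medians were 0.0507 and 0.330. GLDH had the lowest within-group SD of the 4 members, 0.13 (log2), at the 15.9 percentile of all features, and its neighbours differed by 0.126 against 0.155 for other pairs.

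Among the 672 other features with 1 gene, those most like GLDH over the 12 arrays were AT2G36480 (r = 0.94), AT1G79480 (r = 0.90) and AT5G01860 (r = 0.89). Their log2 differences were -0.50, -0.51 and -0.45. With group means removed, r was 0.77, 0.44 and 0.83, so part of the likeness lay in the difference between the groups. AT3G52960 was most like AT1G44920 (r = 0.93), AT2G45990 (r = 0.85) and AT4G16060 (r = 0.80), and these values were 0.93, 0.84 and 0.82 with group means removed. NTRC was most like AT1G74070 (r = 0.83), AT2G11270 (r = 0.76) and CYN (r = 0.75), the last encoding cyanase. CCS was most like AT4G30740 (r = 0.83), AT4G30680 (r = 0.77) and AT4G05030 (r = 0.77), with 4 of its ppi1 arrays set to the floor. The same arrays and their neighbouring sets underlie each of these values.

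The wider redox system was thinly measured. A list of 129 other loci in 9 roles was drawn up, from superoxide dismutases, ascorbate synthesis and the ascorbate-glutathione cycle to thioredoxins, glutaredoxins and tocopherol synthesis. A feature of their own measured 2 of them, and 11 more were found only in features annotated to several genes, which were not used. Of the 2, 0 were called higher and 0 lower in limma, and 1 had an unadjusted p under 0.05, beside 22% of all features. Neither another enzyme of ascorbate synthesis nor a superoxide dismutase was among them.

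SRX, sulfiredoxin, which restores overoxidised 2-Cys peroxiredoxins, had an intensity of 0.436, 0.527 and 0.592 (lowest, median, highest) in ppi1 and 0.307, 0.414 and 0.483 in WT. The means were 0.521 ± 0.0644 in ppi1 and 0.405 ± 0.0598 in WT (SD, n = 6 each). ppi1 was higher at 6 of 6 replicate numbers, as it was for 11.1% of all features, and the differences by set of neighbours were 0.36, 0.35 and 0.39. On the deposited scale the groups did not overlap, as for 12.7% of all features in either direction. Every ppi1 array then lay above every WT array, while the quantile-normalised groups overlapped. The log2 difference was 0.37 (SE 0.114) and did not pass over all features (limma adjusted p = 0.0762). It passed with the replicate number as a block (limma adjusted p = 0.00372) and with array weights (limma adjusted p = 0.0467). On the deposited scale, where 805 of 3365 features were called higher, it was 0.64 (limma adjusted p = 0.00433), or 0.43 relative to the median of all features, against 0.36 relative to it after quantile normalisation. With neighbouring replicates averaged it did not pass (limma adjusted p = 0.475), nor with them as a random block (limma adjusted p = 0.285).

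FTRB (AT2G04700), the catalytic subunit of the ferredoxin-thioredoxin reductase that passes electrons from photosynthesis to plastid thioredoxins, had an intensity of 0.474, 0.593 and 0.693 (lowest, median, highest) in ppi1 and 0.593, 0.667 and 0.720 in WT. The groups overlapped, and the log2 difference was -0.18 (SE 0.0896, limma adjusted p = 0.280). It was 0.13 for replicates 1 and 2, -0.25 for replicates 3 and 4 and -0.41 for replicates 5 and 6. Relative to the median of all features it was -0.13 on the deposited scale and -0.18 after quantile normalisation. As for NTRC and CCS, the sign of FTRB in replicates 1 and 2 differed from that in the other sets. NTRC was negative there, and CCS and FTRB were positive.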

How the data were processed

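The deposited table holds linear hybridisation intensity values, from 0 to a ceiling of 100, for 3439 features on 12 arrays. For the authors' background correction and scaling, the method is not given in sources used here. Array medians ran from 0.475 to 0.645, so the table was not taken as normalised. Features with no signal on any array (74) were left out, and 3365 were quantile-normalised, floored at 0.118 (the 5th percentile of positive values) and put on the log2 scale. The groups were compared with lmFit and eBayes of limma 3.58.1 under R 4.3.3, with no covariate and Benjamini-Hochberg adjustment over all features. The fit was tested on simulated data in which every array was drawn independently. That test does not cover the likeness of neighbouring or same-numbered arrays.

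Features were named from the platform annotation of 2016 (692 with 1 gene, 870 with several, 1877 with none), updated by gene identifier against the TAIR10.1 gene table. Of the 692 identifiers, 2 were not in that table. Genes named are the 4 members, every measured gene of the redox list, and for each member the 3 features with 1 gene of highest r. Members, lists and tests were chosen with earlier results of these data known. Of 4 marker genes of green leaf and senescence, 0 had a feature of their own.

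Deviations of same-numbered ppi1 and WT arrays from their group means correlated at 0.379 to 0.590, and each array matched its own number best. The numbers were therefore taken as pairs in the differences by replicate number and in the replicate block. The main fit, with its errors and calls, did not pair them. The pairing comes from the data, not from the labels. Alternatives were other scalings, an offset instead of the floor, a filter that removed the dimmest 25% of features, the replicate block, neighbouring replicates averaged or as a random block, array weights, and arrays left out. The number of arrays limits the precision.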

Additional observations from a re-analysis of the deposited data

Results flagged for a closer look

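In 2 of the 12 groups of 6 values examined (4 members, SRX and FTRB, each in ppi1 and WT), Dixon's test set 1 array apart from the other 5, as chance alone does in about 1 group of 20. Both were groups of CCS. ppi1 replicate 2 was at 0.212, while the remaining ppi1 arrays ran from 0.0888 to 0.121. The test was run on log2 levels, where 4 of these shared the floor value and so had no spread among themselves. WT replicate 1 was at 0.118, against 0.158 to 0.182 in the other WT arrays. The pair of high WT arrays of AT3G52960, at 2.59 and 2.50, cannot be found by this test, which looks for a lone array.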

How the results depend on the processing

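GLDH had a negative log2 difference in 24 of 24 alternatives (-0.54 to -0.21) and CCS in 23 of 23 (-0.53 to -0.03). AT3G52960 was negative in 23 of 24 (-0.41 to 0.12), but not without replicates 5 and 6 of both groups. NTRC was positive in 23 of 24 (-0.03 to 0.28), but not without replicates 3 and 4. Such sets were left out after seeing the data. Averaging, either block and the dim filter, which dropped CCS, could only return the main value of a member. On the deposited scale, which shifts the median of all features to 0.21, GLDH was at -0.21 and NTRC at 0.28, or -0.41 and 0.07 relative to that median, within 1 within-group SD of their values after quantile normalisation (-0.48 and 0.10). NTRC moved beyond 1 SD, to 0.26, without replicates 1 and 2 of both groups. In the 12 alternatives that drop 1 array, GLDH ran from -0.51 to -0.43, CCS from -0.46 to -0.29, AT3G52960 from -0.27 to -0.08 and NTRC from 0.06 to 0.15. The members called, 1 (GLDH), became 0 on the deposited scale and with neighbouring replicates averaged, 2 without replicates 1 and 2 of both groups, and 1 to 2 with single arrays left out; the call added was that of CCS, whose ppi1 arrays were then mostly at the floor. Of the 2 other redox genes, SRX (0.37) passed on the deposited scale (0.64), with the replicate block (0.37), with array weights (0.36) and without replicates 5 and 6 of both groups (0.35), so that count became 1 in these settings. SRX ran from limma adjusted p = 0.00372 to 0.475 over all alternatives. FTRB was at 0.0798 on the deposited scale, or -0.13 relative to the median of all features. Its sign there went with the shift of that median. SRX was at 0.43 relative to that median. The 284 features called (106 higher, 178 lower) became 909 (805 and 104) on the deposited scale, 517 (250 and 267) with the replicate block, 4 (0 and 4) with neighbouring replicates averaged, 99 (28 and 71) with them as a random block, 138 without replicates 3 and 4 of both groups, and 222 to 277 with single arrays left out. Median scaling gave 80 higher and 336 lower. Fewer values per group enter the averaged setting, in which limma gave 398 features at an unadjusted p under 0.05. Other causes were not tested. The replicate block changed no member's call. Nothing is read from any call of a member, since the genes were chosen with this comparison known.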
